A study of Homo sapiens with 22 samples.

Results

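CD82, CD9, CD37, CD53, CD63, CD81 and CD151 are tetraspanins that are known on the surface or in the endosomes of blood cells, and their mRNA was measured in leukaemia cells after knockdown of FIP1L1. The 7 genes were taken by symbol from the 48162 Ensembl gene IDs of an RNA-seq count table, and 6 of them were among the 15834 genes that passed a filter on low counts. CD9 did not pass. The set was built around CD82, which was chosen by its measured rise with both FIP1L1 shRNAs, so the changes of CD82 against control are a description and carry no test here.

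The cells were Kasumi-1, a human acute myeloid leukaemia line in long use that carries a RUNX1 to RUNX1T1 fusion. Cells received lentivirus with FIP1L1 shRNA 1, with FIP1L1 shRNA 2 or with a control shRNA, and all 3 groups were selected with puromycin and kept in RPMI with 10% FBS. RNA-seq covered 4 libraries of shRNA 1, 4 of shRNA 2 and 4 of the control shRNA. The series also holds 10 libraries of 3'READS, an assay of poly(A) sites, which is not analysed here because its positions carry no gene names. The labels call the replicates biological without naming separate transductions, so p-values measure only the spread between these samples. Total counts ran from 12236937 to 20388437 per library. Every group is a bulk sample of 1 cell line, so fewer cells with a transcript and less of it per cell cannot be told apart.

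Tetraspanins are small proteins that cross the membrane several times and gather one another, integrins, immunoglobulin-like partners and proteases into patches of the plasma membrane. CD37 and CD53 are largely restricted to leukocytes. CD63 sits mainly in late endosomes and lysosomes, and CD63, CD81 and CD9 are the usual markers of extracellular vesicles. CD82, also called KAI1, was described as a suppressor of metastasis in human prostate cancer, and CD151 binds the laminin-binding integrins. FIP1L1 is a subunit of the complex that recognises the poly(A) signal of a pre-mRNA, cuts it and allows it to be tailed.

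Levels are given as CPM, the usual depth-scaled count, relative to the TMM-scaled library size. FIP1L1 itself had 14.1, 14.7, 15.1 and 17.6 CPM with shRNA 1, 20.2, 20.2, 19.1 and 18.7 CPM with shRNA 2, and 42.2, 38.9, 44.1 and 40.2 CPM in control cells. All 8 knockdown libraries lay below all 4 control libraries, at 37.2% of the control mean with shRNA 1 and 47.3% with shRNA 2. A gene on the other strand, LNX1, shares 27.7% of the exon bases of FIP1L1 and had 3.80, 5.87 and 5.01 CPM on average with shRNA 1, with shRNA 2 and in control cells. A gene on the same strand, ENSG00000282278, shares 18% of these bases and was not among the counted IDs, so it has no level here. The Kasumi-1 markers RUNX1T1, KIT, CD34, MPO, AZU1 and CTSG all passed the filter, and their summed level was 7725 to 10216 CPM with shRNA 1, 10297 to 12909 CPM with shRNA 2 and 17407 to 19547 CPM in control cells. That sum is mostly MPO, with means of 7212, 9913 and 16234 CPM, and the 6 genes did not move alike. RUNX1T1, CD34 and MPO fell with both shRNAs and KIT with shRNA 1, AZU1 rose with shRNA 1 (244 ± 111 CPM against 87.7 ± 7.42 CPM in control cells, edgeR adjusted p = 0.00194), and CTSG passed the test with neither. Of 5 B-cell markers 4 passed the filter. Their sums were 53.4 to 70.3, 102 to 112 and 99.9 to 118 CPM with shRNA 1, with shRNA 2 and in control cells. Most of this was PAX5, with means of 46.8, 71.2 and 76.7 CPM, and MS4A1 had no count in any library. CD79B was called lower with both shRNAs, and CD79A in opposite directions (log2 changes -1.62 and 1.40, edgeR adjusted p = 1.95e-06 and 2.83e-06). Of 5 monocyte markers 4 passed, with sums of 51.5 to 66.3, 37.8 to 55.3 and 42.5 to 47.1 CPM. Within this list LYZ, or lysozyme, rose with both shRNAs (4.85 ± 1.96 and 6.41 ± 0.950 CPM against 0.639 ± 0.233 CPM in control cells, log2 changes 2.87 and 3.28, edgeR adjusted p = 1.87e-07 and 3.26e-08). ITGAM, or CD11b, rose as well (6.39 ± 0.305 and 13.8 ± 1.17 CPM against 2.59 ± 1.08 CPM, log2 changes 1.33 and 2.44, edgeR adjusted p = 1.28e-05 and 1.72e-09). FCGR1A had the highest mean of this list in each group, at 39.9, 14.8 and 29.8 CPM with shRNA 1, with shRNA 2 and in control cells. It was called in opposite directions (0.42 and -1.01, edgeR adjusted p = 0.000687 and 1.89e-08), and CD14 did not pass the filter. The part of these marker changes in the tetraspanin results was not tested. Platelet, T-cell and red-cell markers summed to at most 24.9, 3.29 and 37.7 CPM in any library, with PF4 and HBB at 0 throughout.

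The poly(A) signals of CD82, CD63, CD53 and CD37 are shown because the complex that FIP1L1 belongs to recognises this element. Each line gives 30 bases around the signal in the principal GENCODE 29 transcript, with the hexamer in capitals.
CD82: gattctaagactATTAAAgaggatttataa
CD63: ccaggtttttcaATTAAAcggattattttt
CD53: tactcttcaataAATAAAagtttattatct
CD37: acccaaacctcaAATAAAtcccctgcgttt
CD82 and CD63 held the variant ATTAAA and no AATAAA in the last 50 bases, and the other 5 members held AATAAA. Over the principal transcripts of 19881 genes, 59.2% held AATAAA in that window and 13.3% held ATTAAA without AATAAA. The hexamer began 25 bases from the transcript end in CD82, 18 in CD63, 21 in CD53 and 27 in CD37. These letters describe the annotated end and not the site that was used in these cells.

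CD82 was the member with the greatest distance between the knockdown and the control libraries, the rise it was chosen for (ENSG00000085117, GRCh38 chromosome 11, 44564427 to 44620363, plus strand). It had 22.1, 42.6, 34.6 and 45.8 CPM with shRNA 1, 38.9, 41.1, 42.7 and 41.3 CPM with shRNA 2, and 7.40, 6.92, 3.45 and 5.33 CPM in control cells. The lowest knockdown library, replicate 1 of shRNA 1, stood well above the highest control library, and the shRNA 1 libraries were spread more widely than those of shRNA 2. Mean levels were 36.3 ± 10.6 CPM with shRNA 1, 41.0 ± 1.55 CPM with shRNA 2 and 5.77 ± 1.78 CPM in control cells (SD, n = 4 each), which are 6.28 and 7.10 times the control mean. The log2 changes were 2.66 (SE 0.23) with shRNA 1 and 2.84 (SE 0.23) with shRNA 2. Over 18 alternative settings they ran from 2.48 to 2.86 and from 2.66 to 2.99.

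CD82 was chosen for a rise with both shRNAs, which rests on the same knockdown libraries. The comparison of the shRNAs in CD82 is therefore not free of that choice, which favours genes raised by both. With shRNA 2 the level was 1.13 times that with shRNA 1, a log2 difference of 0.18 (SE 0.20, edgeR adjusted p = 0.464, 4 libraries each). The 95% interval of this difference ran from -0.27 to 0.62, so ratios between 0.831 and 1.54 are within it. The libraries of the pair overlapped. The antisense gene CD82-AS1 covers 6.91% of the exon bases of CD82 and averaged 0.0146 CPM with shRNA 1, 0.0425 CPM with shRNA 2 and 0 in control cells, so its own reads were near 0.

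CD53, a pan-leukocyte tetraspanin, was the other member higher with both shRNAs (ENSG00000143119, GRCh38 chromosome 1, 110871188 to 110899928, plus strand). It had 24.7, 30.5, 23.7 and 26.6 CPM with shRNA 1, 30.4, 27.1, 25.2 and 28.3 CPM with shRNA 2, and 13.1, 12.8, 9.88 and 9.03 CPM in control cells. Every knockdown library was above every control library. CD53 rose with shRNA 1 by a log2 change of 1.25 (SE 0.13, edgeR adjusted p = 1.55e-08) and with shRNA 2 by 1.32 (SE 0.13, edgeR adjusted p = 1.08e-08), or to 2.36 and 2.48 times the control mean. The shRNAs overlapped, with a log2 difference of 0.07 for shRNA 2 against shRNA 1 (SE 0.12, edgeR adjusted p = 0.640) and a 95% interval from -0.20 to 0.34. No annotated gene shares exon bases with CD53.

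The promoter windows of CD82 and CD53 are shown because these are the members that were higher with both shRNAs. Each runs from 250 bases before to 50 after a RefSeq start on GRCh38.p14, and GC boxes, the letters GGGCGG on either strand, are in capitals. The CD82 window is chr11:44565413-44565712 on the plus strand and that of CD53 is chr1:110870960-110871259 on the plus strand.
CD82: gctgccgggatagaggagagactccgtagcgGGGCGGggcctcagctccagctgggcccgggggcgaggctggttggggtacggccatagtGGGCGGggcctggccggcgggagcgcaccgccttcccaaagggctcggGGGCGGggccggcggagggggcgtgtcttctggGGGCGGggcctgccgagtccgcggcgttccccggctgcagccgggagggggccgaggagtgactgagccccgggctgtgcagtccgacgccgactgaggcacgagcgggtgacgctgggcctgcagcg
CD53: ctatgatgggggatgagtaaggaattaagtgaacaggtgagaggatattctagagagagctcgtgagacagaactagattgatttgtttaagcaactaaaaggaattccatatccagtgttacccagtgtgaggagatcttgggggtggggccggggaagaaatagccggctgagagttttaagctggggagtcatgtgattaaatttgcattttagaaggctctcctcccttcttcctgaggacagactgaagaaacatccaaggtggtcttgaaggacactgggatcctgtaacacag
The CD82 window held 4 GC boxes and 76.7% G or C, and the CD53 window held 0 boxes and 45.7% G or C. Of 35116 promoter windows of this length, 45% held at least 1 GC box, 9.06% held at least 4, and the median G and C content was 58.7%. A second RefSeq start of CD53 held 1 box. The pair that was higher with both shRNAs thus differed in base composition in these windows. CD9 and CD63 also had windows in the table, and CD37, CD81 and CD151 are named only.

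CD37, a B-cell and myeloid tetraspanin that is a target of antibodies in lymphoma, went in opposite directions with the shRNAs (ENSG00000104894, GRCh38 chromosome 19, 49335171 to 49343335, plus strand). It had 200, 218, 243 and 255 CPM with shRNA 1, 126, 132, 141 and 133 CPM with shRNA 2, and 195, 191, 182 and 198 CPM in control cells. All shRNA 1 libraries were above and all shRNA 2 libraries were below the control libraries, although replicate 1 of shRNA 1 was close to the highest control library. CD37 rose with shRNA 1 (log2 change 0.26, SE 0.07, edgeR adjusted p = 0.00301) and fell with shRNA 2 (log2 change -0.53, SE 0.07, edgeR adjusted p = 1.61e-06). Set against shRNA 1, shRNA 2 gave a lower level (log2 difference -0.79, SE 0.07, edgeR adjusted p = 1.89e-09). TEAD2 shares 7.67% of the exon bases of CD37 on the other strand and averaged 3.22, 2.18 and 2.71 CPM with shRNA 1, with shRNA 2 and in control cells, far below CD37.

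CD63, the tetraspanin of late endosomes and vesicles, differed between the shRNAs in the other sense (ENSG00000135404, GRCh38 chromosome 12, 55725323 to 55729707, minus strand). It had 71.4, 96.0, 118 and 128 CPM with shRNA 1, 217, 206, 238 and 239 CPM with shRNA 2, and 147, 135, 170 and 168 CPM in control cells. No library of shRNA 1 reached the lowest control library, and no library of shRNA 2 came down to the highest. CD63 fell with shRNA 1 (log2 change -0.59, SE 0.15, edgeR adjusted p = 0.00393) and rose with shRNA 2 (log2 change 0.54, SE 0.15, edgeR adjusted p = 0.00789). Set against shRNA 1, shRNA 2 gave 2.18 times the level (log2 difference 1.12, SE 0.15, edgeR adjusted p = 1.99e-05). CD63-AS1 shares 9% of the exon bases of CD63 on the other strand and averaged 10.4, 5.88 and 5.41 CPM with shRNA 1, with shRNA 2 and in control cells. Strand was not stated for the counting, so reads over the shared bases cannot be told apart for this or the other antisense pairs.

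CD81, an entry receptor of hepatitis C virus, was lower with shRNA 1 (ENSG00000110651, GRCh38 chromosome 11, 2376177 to 2397419, plus strand). It had 126, 141, 188 and 211 CPM with shRNA 1, 236, 232, 272 and 269 CPM with shRNA 2, and 278, 253, 306 and 292 CPM in control cells. The shRNA 1 libraries lay below all others, while shRNA 2 and control libraries overlapped. CD81 fell with shRNA 1 (log2 change -0.76, SE 0.14, edgeR adjusted p = 0.000257). With shRNA 2 the log2 difference from control was -0.16 (SE 0.13, edgeR adjusted p = 0.346) with a 95% interval from -0.47 to 0.14, and in a fit of these 2 groups alone its adjusted p was 0.0243. Set against shRNA 1, shRNA 2 gave a higher level (log2 difference 0.60, SE 0.14, edgeR adjusted p = 0.00164).

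CD151, which binds laminin-binding integrins, was lower with both shRNAs (ENSG00000177697, GRCh38 chromosome 11, 832843 to 839831, plus strand). It had 32.8, 36.3, 49.2 and 54.1 CPM with shRNA 1, 41.7, 43.7, 46.8 and 50.8 CPM with shRNA 2, and 62.3, 53.7, 72.9 and 55.6 CPM in control cells. Replicate 4 of shRNA 1 was just above replicate 2 of the control, and the shRNA 2 libraries were all below the control libraries. CD151 fell with shRNA 1 (log2 change -0.51, SE 0.14, edgeR adjusted p = 0.00454) and with shRNA 2 (log2 change -0.42, SE 0.14, edgeR adjusted p = 0.0175). The log2 difference of shRNA 2 from shRNA 1 was 0.09 (SE 0.14, edgeR adjusted p = 0.607), with a 95% interval from -0.22 to 0.40. The call with shRNA 2 was lost without replicate 3 of the control (adjusted p = 0.0646) or replicate 1 of shRNA 2 (adjusted p = 0.0533). Scaling to library totals alone, which moved the median log2 change of all genes by 0.19 with shRNA 1 and by 0.08 with shRNA 2, left CD151 at -0.31 and -0.33 (adjusted p = 0.0720 and 0.0603). POLR2L shares 6.53% of the exon bases of CD151 on the other strand and averaged 9.19, 18.7 and 12.5 CPM with shRNA 1, with shRNA 2 and in control cells.

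CD9, known on platelets and, in the mouse, for its part in sperm and egg fusion, had 8 counts over the 12 libraries (ENSG00000010278, GRCh38 chromosome 12, 6199715 to 6238271, plus strand). It had 0, 1, 2 and 0 counts with shRNA 1, 0, 1, 0 and 0 with shRNA 2, and 0, 0, 1 and 3 in control cells. No library exceeded 3 counts, a floor of 0.138 to 0.256 CPM depending on depth, so no fold is given and a difference was not detectable at this depth.

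**Figure D1:**
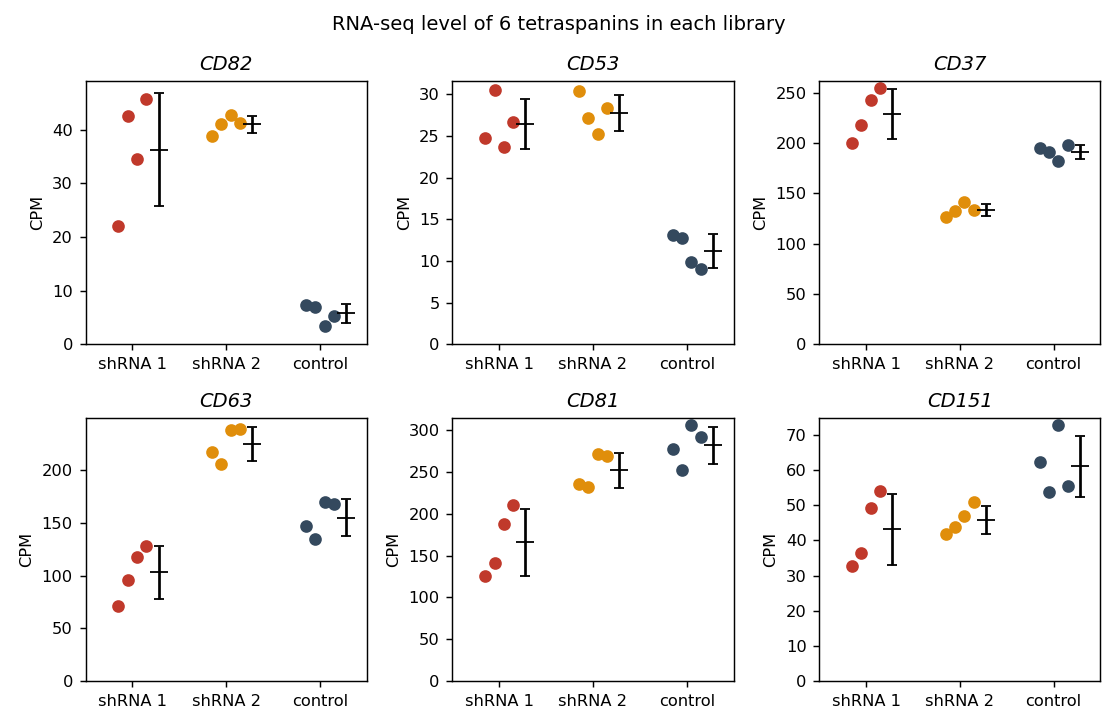
RNA-seq level in CPM (y axis, from 0) of CD82, CD53, CD37, CD63, CD81 and CD151 in each of the 4 libraries of shRNA 1, shRNA 2 and control (x axis), with dots for libraries in replicate order and a bar for the mean ± SD. CD82 and CD53 stand above control with both shRNAs, and CD37 and CD63 lie on opposite sides of control. CD81 is below control with shRNA 1. CD151 is below it with shRNA 2, and with shRNA 1 its mean is below but the libraries overlap.

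Among the 5 tested members other than CD82, 2 rose with shRNA 1 (CD53 and CD37), against 28.6% of all genes tested, and 3 fell (CD63, CD81 and CD151), against 28.7%. With shRNA 2, 2 rose (CD53 and CD63), against 24.7% of all genes, 2 fell (CD37 and CD151), against 25.3%, and CD81 did not pass the test. Their median log2 change was -0.51 with shRNA 1 and -0.16 with shRNA 2, against 0.02 and 0.00 over all genes tested. Between the shRNAs, CD63 and CD81 were higher with shRNA 2, against 29.3% of all genes, CD37 was lower, against 29.4%, and CD53 and CD151 did not pass the test, with a median log2 difference of 0.09 against -0.02 over all genes. With 5 genes and about 1 in 4 of all genes called in each direction, these shares do not set the members apart. With scaling to library totals CD151 was not called, which left 2 higher and 2 lower with shRNA 1, and 2 higher and 1 lower with shRNA 2. The comparisons with control use the same 4 control libraries, so their values stand side by side and are not independent.

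The level per kilobase of merged exons allows genes to be set beside one another. With shRNA 1 the order was CD37 at 55.1 ± 5.96 CPM per kb (SD, n = 4), CD63 at 39.3 ± 9.54, CD81 at 22.5 ± 5.40, CD53 at 12.3 ± 1.40, CD151 at 10.9 ± 2.58 and CD82 at 8.95 ± 2.6. With shRNA 2 it was CD63 at 85.4 ± 6.19 CPM per kb, CD81 at 34.1 ± 2.85, CD37 at 31.9 ± 1.43, CD53 at 12.9 ± 1.01, CD151 at 11.6 ± 0.997 and CD82 at 10.1 ± 0.383. In control cells it was CD63 at 58.9 ± 6.52 CPM per kb, CD37 at 46.0 ± 1.67, CD81 at 38.2 ± 3.03, CD151 at 15.5 ± 2.20, CD53 at 5.20 ± 0.951 and CD82 at 1.42 ± 0.440. CD63 was thus the most abundant member in control and shRNA 2 cells and CD37 with shRNA 1, and CD53 stood above CD151 with both shRNAs and below it in control cells.

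In control cells no neighbours in that order overlapped over the 4 libraries. With shRNA 1, CD37 overlapped CD63, CD63 overlapped CD81, and CD53, CD151 and CD82 formed a run in which neighbours overlapped. With shRNA 2, CD81 overlapped CD37 and CD53 overlapped CD151. With the longest transcript as the length, CD63 stood at 83.8 and CD37 at 72.2 CPM per kb with shRNA 1, and CD151 stood above CD53 with both shRNAs at 23.2 against 16.8 and at 24.6 against 17.7, so these parts of the order rest on the length used.

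Among 33 tetraspanins, CD82 ranked 10 by level per kb with shRNA 1, 9 with shRNA 2 and 15 in control cells. Its level per kb exceeded 69.6% of tested genes with shRNA 1 and 72.1% with shRNA 2, and 29% in control cells. It made up 3.74%, 3.61% and 0.554% of the summed level per kb of the 33 genes. The sum of the 7 members was 149 ± 25.2 CPM per kb with shRNA 1, 186 ± 10.5 with shRNA 2 and 165 ± 9.32 in control cells. The libraries ran from 117 to 176 with shRNA 1 and from 153 to 174 in control cells, which overlap. With shRNA 2 they ran from 175 to 195, above all control libraries, with no test made.

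**Figure D2:**
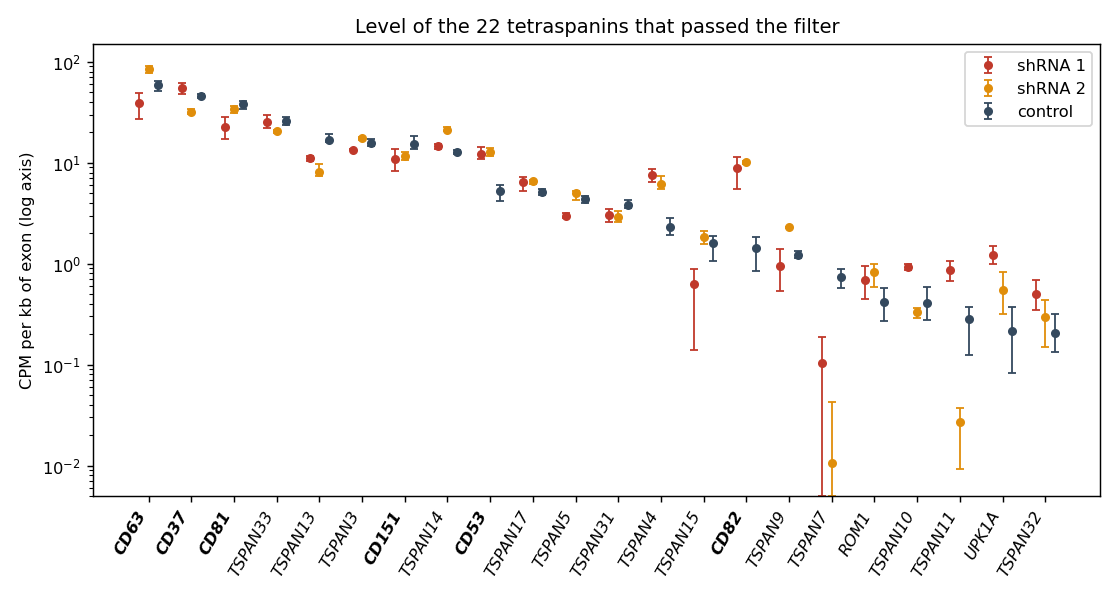
Level in CPM per kb of exon (log y axis) of the 22 tetraspanins that passed the filter, ordered by control mean (x axis, members in bold), as the mean with the range over 4 libraries for shRNA 1, shRNA 2 and control. Range bars that reach the lower edge include a library at 0. CD63, CD37 and CD81 are the 3 highest in control cells, and CD82 is at 8.95 and 10.1 with the shRNAs, against 1.42 in control cells.

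The members also differed in how they varied within groups. In shRNA 1 cells, replicate 1 was lowest and replicate 4 highest for CD82, CD37, CD63, CD81 and CD151. CD63 and CD81 lay below their group mean in replicates 1 and 2 and above it in replicates 3 and 4 in all 3 groups. Over the deviations of the 12 libraries from their group means, CD63 and CD81 had r = 0.95 (Spearman 0.92), CD81 and CD151 had 0.93 (0.93), CD63 and CD151 had 0.86 (0.80) and CD37 and CD81 had 0.84 (0.68). CD53 had r = -0.34 (-0.45) with CD81 and -0.30 (-0.48) with CD63. CD82 had 0.65 (0.57) with CD37, 0.59 (0.66) with CD53 and 0.30 (-0.08) with CD63. The genes share each library and its depth, and over all genes the chi-square of replicate pairs, divided by its degrees of freedom, was 3.91 to 29.4 for shRNA 1, 3.89 to 6.37 for shRNA 2 and 3.59 to 7.34 for the control.

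**Figure D3:**
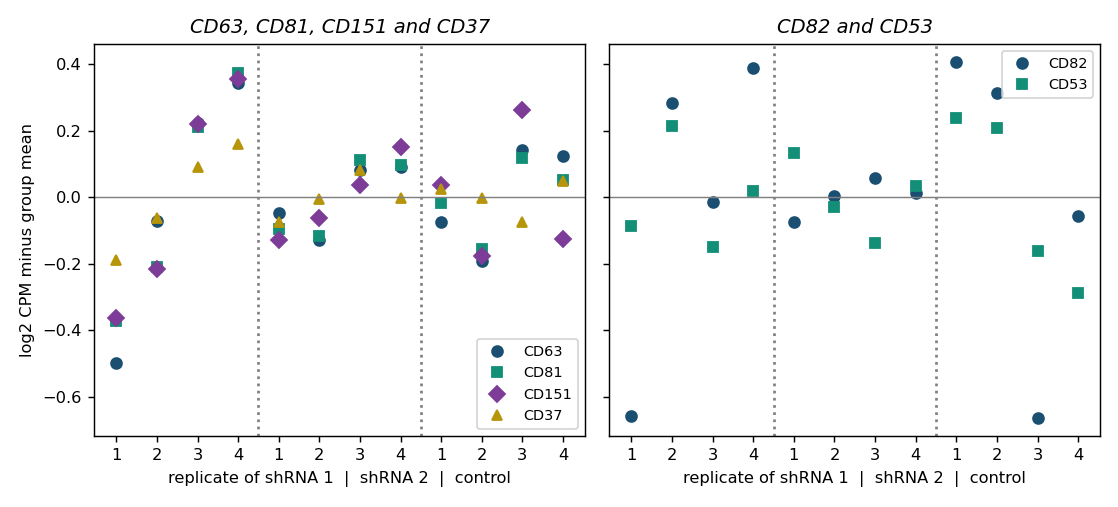
log2 CPM minus the group mean (y axis) for each replicate of shRNA 1, shRNA 2 and control (x axis), for CD63, CD81, CD151 and CD37 on the left and CD82 and CD53 on the right. In shRNA 1, replicate 1 is lowest and replicate 4 highest for the 4 genes on the left and for CD82.

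Of the 26 other human tetraspanins looked for, 16 passed the filter. With shRNA 1, 7 of the 16 rose and 6 fell, against 28.6% and 28.7% of all genes tested, and 3 did not pass the test. With shRNA 2, 7 rose and 5 fell, against 24.7% and 25.3%, and 4 did not. The 7 that rose with shRNA 2 became 4 with no filter, without replicate 4 of the control or without replicate 1 of shRNA 2. Median log2 changes were 0.08 and 0.19, against 0.02 and 0.00 over all genes. With scaling to library totals the calls were 8 higher and 4 lower with shRNA 1. The other 10 had at most 61 counts over the 12 libraries, and TSPAN19 and UPK1B had 0. TSPAN4, a marker of migrasomes, the vesicles that migrating cells leave behind, had the largest rise with both shRNAs among those above 5 CPM, with means of 44.3 ± 6.99 and 36.3 ± 5.02 CPM with shRNA 1 and shRNA 2 and 13.5 ± 2.18 CPM in control cells (log2 changes 1.71 and 1.43, edgeR adjusted p = 1.78e-10 and 6.36e-09).

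TSPAN14 rose with both (log2 changes 0.19 and 0.74, edgeR adjusted p = 0.00938 and 4.87e-10), with 260 ± 12.3 and 382 ± 14.1 CPM against 228 ± 9.24 CPM in control cells. TSPAN17 rose likewise (log2 changes 0.33 and 0.37, edgeR adjusted p = 0.00718 and 0.00353). UPK1A, a urothelial plaque protein, averaged 1.68 and 0.751 CPM against 0.297 CPM in control cells, with log2 changes of 2.53 and 1.38 (edgeR adjusted p = 0.000278 and 0.0427). The UPK1A call with shRNA 2 was lost in 8 of 17 alternatives (adjusted p = 0.0511 to 0.149), among them no filter and leaving out replicate 1 or 4 of the control, 3 or 4 of shRNA 1, or 1 or 2 of shRNA 2. These 4 were the other tetraspanins called higher with both shRNAs. How many of all genes tested were called with both was not computed.

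TSPAN7, TSPAN13 and TSPAN31 were called lower with both shRNAs. TSPAN7 had 21 counts over the 4 shRNA 1 libraries, 2 over the 4 shRNA 2 libraries and 135 over the 4 control libraries. Its ratio to control, corrected for depth, was 0.125 with shRNA 1 (95% exact counting interval 0.0748 to 0.198) and 0.0122 with shRNA 2 (0.00146 to 0.0448), intervals that cover counting error only. TSPAN13 averaged 24.8 ± 1.08 and 18.1 ± 2.32 CPM against 37.3 ± 3.44 CPM in control cells (log2 changes -0.59 and -1.04, edgeR adjusted p = 3.22e-05 and 1.68e-08), and TSPAN31 changed by -0.32 and -0.41 (edgeR adjusted p = 0.0271 and 0.00676). The TSPAN31 call with shRNA 1 was lost in 5 of 18 alternatives (adjusted p = 0.0524 to 0.387), namely the compared groups alone, library totals, and without replicate 1 or 4 of the control or replicate 4 of shRNA 1.

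TSPAN11 was called in opposite directions. It averaged 6.15 ± 1.30 CPM with shRNA 1, 0.194 ± 0.0876 CPM with shRNA 2 and 2.00 ± 0.798 CPM in control cells (log2 changes 1.62 and -3.28, edgeR adjusted p = 8.27e-05 and 1.02e-06). TSPAN3 changed by -0.22 with shRNA 1 and by 0.15 with shRNA 2, where its adjusted p lay at the threshold and the call was lost in 11 of 18 alternatives (adjusted p = 0.0505 to 0.15), among them leaving out any replicate of shRNA 2, replicate 1, 2 or 4 of the control, or replicate 2 or 3 of shRNA 1. Its call with shRNA 1 was lost with library totals (-0.03, adjusted p = 0.715). TSPAN10 (1.21) and TSPAN32 (1.31) rose with shRNA 1, and TSPAN5 (-0.58) and TSPAN15 (-1.38) fell with it, while none of these 4 passed the test with shRNA 2. TSPAN9 (0.90) and ROM1 (0.99) rose and TSPAN33 (-0.33) fell with shRNA 2, and these did not pass the test with shRNA 1. The ROM1 call was lost in 6 of 18 alternatives (adjusted p = 0.0568 to 0.1), with no filter and without replicate 2 or 4 of the control or replicate 1, 3 or 4 of shRNA 2. Calls were also gained. Without replicate 1 of shRNA 1, TSPAN9 was called lower with shRNA 1 (-0.65, edgeR adjusted p = 0.00298). With library totals, ROM1 was called higher with shRNA 1 (0.93, edgeR adjusted p = 0.0385) and TSPAN5 higher with shRNA 2 (0.25, edgeR adjusted p = 0.0323).

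**Figure D4:**
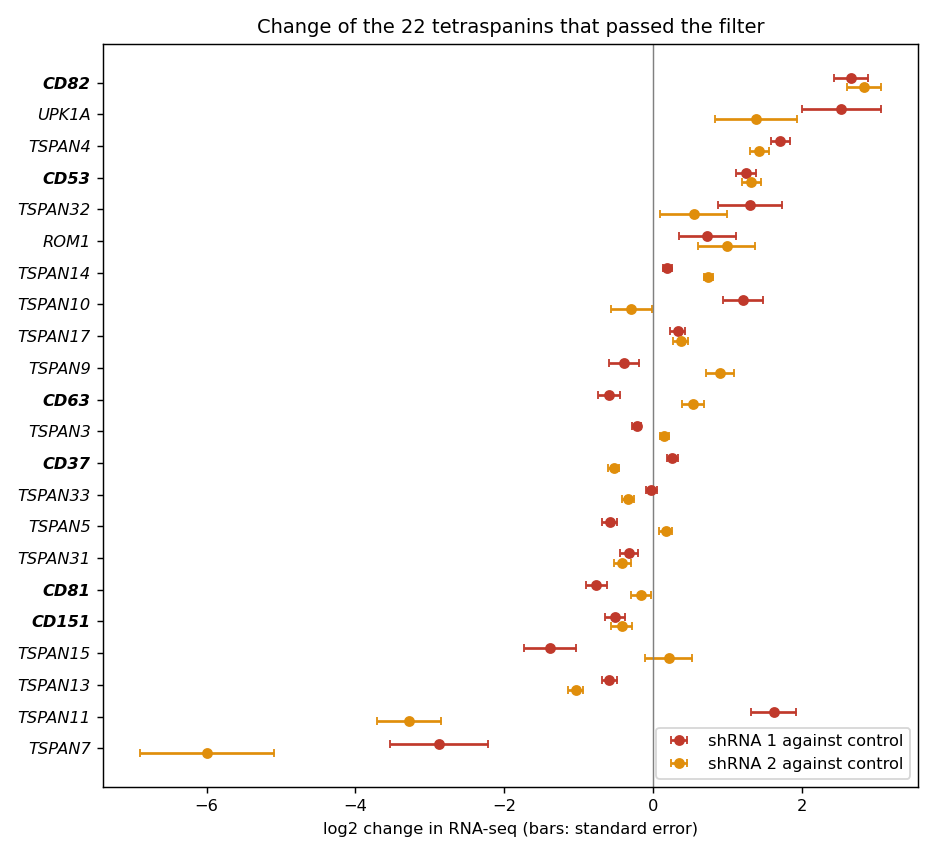
log2 change in RNA-seq (x axis) with shRNA 1 and with shRNA 2 against control, with standard errors, for the 22 tetraspanins that passed the filter (y axis, members in bold, ordered by the mean of both changes). CD82 is at the top at 2.66 and 2.84. Changes on opposite sides of 0 are those of CD37, CD63, TSPAN3, TSPAN5, TSPAN9, TSPAN10, TSPAN11 and TSPAN15. The shRNA 2 value of TSPAN7 rests on 2 counts.

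The proteins that tetraspanins bind gave a further list of 25 genes, of which 18 passed the filter. With shRNA 1, 1 rose and 11 fell, with a median log2 change of -0.36, against 28.6% and 28.7% of all genes in these directions and a median of 0.02. With scaling to library totals 7 fell with shRNA 1. With shRNA 2, 5 rose and 5 fell, against 24.7% and 25.3% of all genes, with a median of 0.03 against 0.00. The list shares 4 genes with the marker lists. Those called with both shRNAs in 1 direction were IGSF3, an immunoglobulin-like partner of tetraspanins, which rose (log2 changes 1.60 and 2.75, edgeR adjusted p = 0.000506 and 4.95e-07), and IFITM1, ADAM17 and ITGA4, which were called lower. IFITM1, an interferon-induced membrane protein that binds CD81, averaged 8.67 ± 3.44 and 13.2 ± 1.26 CPM against 21.7 ± 4.90 CPM in control cells (log2 changes -1.33 and -0.72, edgeR adjusted p = 0.000121 and 0.0147). ADAM17, the tumour necrosis factor converting enzyme, averaged 51.3 ± 5.73 and 27.4 ± 0.950 CPM against 64.9 ± 4.28 CPM (log2 changes -0.34 and -1.24, edgeR adjusted p = 0.00146 and 5.42e-11). ITGA4, the integrin chain of VLA-4, averaged 173 ± 13.6 and 100 ± 4.69 CPM against 193 ± 9.67 CPM, with log2 changes of -0.16 and -0.95 (edgeR adjusted p = 0.0486 and 6.97e-11). Its call with shRNA 1 was lost in 13 of 18 alternatives (adjusted p = 0.0504 to 0.627), among them RLE scaling, DESeq2 and leaving out replicate 1, 3 or 4 of the control, 3 or 4 of shRNA 1, or 1, 2 or 3 of shRNA 2, and its value was 0.04 with library totals. ADAM17 with shRNA 1 lost its call with library totals (adjusted p = 0.142).

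Among 22 genes of endosomes and vesicle release, 20 passed the filter. With shRNA 1, 13 rose and 5 fell, against 28.6% and 28.7% of all genes tested, with a median log2 change of 0.23 against 0.02. With shRNA 2, 10 rose and 3 fell, against 24.7% and 25.3%, with a median of 0.12 against 0.00. Of the 20, 7 were called higher with both shRNAs, 0 lower with both and 5 in opposite directions. The share of all genes tested that was called with both shRNAs was not computed, so these counts stand without a background. Scaling to library totals gave 10 and 1 with shRNA 2. SDC3, SDCBP, RAB27A and AP3D1 were those called higher with both that the naming rule took. SDC3, a heparan sulphate proteoglycan, averaged 5.96 ± 0.585 and 3.99 ± 0.677 CPM against 0.446 ± 0.405 CPM in control cells, log2 changes of 3.83 and 3.25 (edgeR adjusted p = 2.39e-08 and 5.68e-07). SDCBP, or syntenin, which links syndecans and CD63 to vesicle formation, averaged 169 ± 21.8 and 146 ± 5.25 CPM against 96.4 ± 7.47 CPM (log2 changes 0.81 and 0.60, edgeR adjusted p = 8.13e-09 and 1.29e-06). RAB27A, a GTPase of secretory vesicles, averaged 72.4 ± 12.6 and 57.8 ± 1.72 CPM against 38.5 ± 4.10 CPM (log2 changes 0.91 and 0.59, edgeR adjusted p = 4.49e-08 and 3.44e-05). AP3D1, a subunit of the adaptor that sorts CD63 to lysosomes, averaged 350 ± 22 and 384 ± 22.5 CPM against 250 ± 11.1 CPM (log2 changes 0.48 and 0.62, edgeR adjusted p = 8.66e-07 and 3.24e-08).

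The genes most like CD82 over the 12 libraries were found by Pearson correlation of log2 CPM among tested genes with a mean of at least 5 CPM. They were ZYX (0.990), a focal adhesion protein, the pseudogene HSD17B1P1 (0.986), PRAM1 (0.984), an adaptor of myeloid cells, LPXN (0.982), a leukocyte adaptor of the paxillin family, and FLNA (0.981), an actin cross-linker. CD53 had 0.972 and ranked 20 among all tested genes, TSPAN4 had 0.924, and CD151 had -0.659 and CD81 -0.474. ZYX averaged 129 ± 24.4 and 156 ± 6.63 CPM against 48.2 ± 6.51 CPM in control cells, and FLNA averaged 757 ± 51.0 and 792 ± 31.3 CPM against 510 ± 31.4 CPM. In all 5 genes every knockdown library was above every control library, so the correlations describe mainly the gap between knockdown and control that chose CD82.

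**Figure D5:**
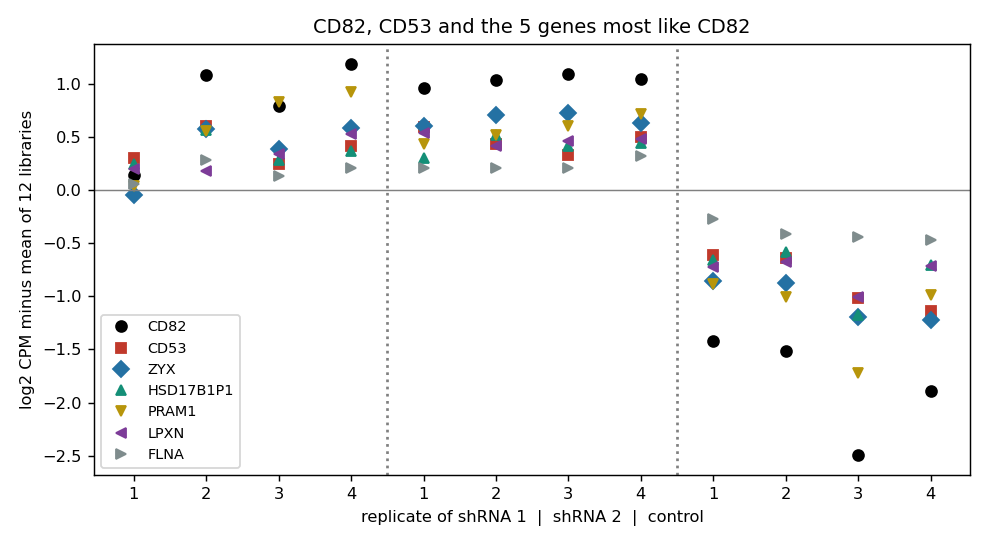
log2 CPM minus the mean over 12 libraries (y axis) of CD82, CD53 and the 5 genes most like CD82, in each replicate of shRNA 1, shRNA 2 and control (x axis). In every gene the control libraries lie below the knockdown libraries, and CD82 has the widest gap and its lowest control value in replicate 3.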

How the data were processed

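RNA was extracted from Kasumi-1 cells and libraries were made with the NEBNext Ultra kit, per the labels' protocols. The authors deposited raw read counts for each Ensembl ID. The tools STAR 2.7.3a, cutadapt 2.6 and DESeq2 and the build hg19 are named in the submitters' processing notes; their roles, the counting tool, the annotation and the strand setting were not given in the sources used here. Symbols came from a separate list of gene names matched by Ensembl ID, or from GENCODE 29 where that list had none. GRCh38 positions and exon lengths came from GENCODE 29, and 2820 of 48162 IDs had no symbol.

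All 12 libraries entered 1 model of the 3 groups, with 9 residual degrees of freedom, and were tested by quasi-likelihood in edgeR 4.0.16 (R 4.3.3) after TMM scaling and filterByExpr, with a robust spread. The tests were two-sided, with Benjamini-Hochberg adjustment over 15834 genes at a threshold of 0.05, and the script was tested on simulated data. SEs are the absolute log2 change divided by the square root of the F statistic of the test. The 95% intervals of differences are SEs times the t quantile at 9 degrees of freedom. The F test also uses prior degrees of freedom, so intervals and p-values need not match exactly. Intervals and floors cover counting error only where they rest on counts. The members and lists were chosen with earlier results of these data known. Named genes were FIP1L1, the members, every other tetraspanin that passed the filter, up to 4 genes per further list called with both shRNAs in 1 direction with the largest smaller change, and the 5 genes most like CD82. Genes named for their overlap with a member were taken from the annotation. Alternatives were RLE scaling, DESeq2 1.42.0, no filter, the compared groups alone, a replicate block, each library left out, and library totals with no further scaling, which was chosen after seeing the data.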

Additional observations from a re-analysis of the deposited data

Results flagged for a closer look

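The effects of the shRNAs differed by the edgeR test of shRNA 2 against shRNA 1 for 22 of the named genes. Over all genes tested, 29.3% were called higher and 29.4% lower in this comparison, so such calls were common and do not set the named genes apart. FIP1L1 itself was higher with shRNA 2 (log2 difference 0.35). Among the members these were CD37 (log2 difference -0.79), CD63 (1.12) and CD81 (0.60). Among other tetraspanins they were TSPAN3 (0.37), TSPAN4 (-0.29), TSPAN5 (0.75), TSPAN7 (-3.11), TSPAN9 (1.29), TSPAN10 (-1.50), TSPAN11 (-4.90), TSPAN13 (-0.45), TSPAN14 (0.56), TSPAN15 (1.58), TSPAN33 (-0.31) and UPK1A (-1.15). Among partners and vesicle genes they were IGSF3 (1.16), IFITM1 (0.62), ADAM17 (-0.90), ITGA4 (-0.79), SDCBP (-0.21) and RAB27A (-0.33). Over the alternatives the call was lost 8 times for TSPAN4, 6 for UPK1A, 5 for IFITM1, and 3 each for TSPAN7 and SDCBP.

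A single library stood apart from the other 3 of its group, by the gap to the nearest library over the range of the group, in 9 of 108 gene and group pairs, and chance gives about 1 in 20. With shRNA 1 this was RAB27A (0.937, replicate 2 highest). With shRNA 2 it was TSPAN5 (0.896, replicate 3 lowest), TSPAN7 (1.000, replicate 4 with its 2 counts), TSPAN9 (0.964, replicate 4 lowest), TSPAN14 (0.855, replicate 2 highest), ITGA4 (0.939, replicate 4 lowest) and FLNA (0.958, replicate 4 highest). The TSPAN9 libraries had 16.0, 16.0, 16.0 and 15.4 CPM, so the ratio can be high where the gap itself is small. In control cells it was TSPAN13 (0.939, replicate 2 highest) and LPXN (0.858, replicate 3 lowest). No member was among them.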

How the results depend on the processing

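Under the alternatives no change of a member turned its direction past the threshold. Of 288 tested values of the members, 283 kept their side of the threshold, and of 36 values of CD82 against control, which carry no test, 32 moved by less than the spread between replicates. CD151 with shRNA 2 lost its call in 3 settings and with shRNA 1 in 1, and CD81 with shRNA 2 gained one in 1. Members other than CD82 called lower with shRNA 2 numbered 1 to 2 when libraries were left out, and 1 with library totals. Other tetraspanins called higher with shRNA 2 numbered 4 with no filter and 4 to 7 when libraries were left out, and those lower with shRNA 2 than with shRNA 1 numbered 4 to 7. ITGA4 with shRNA 1 was 0.04 with library totals. With the longest transcript as length, levels per kb with shRNA 1, with shRNA 2 and in control cells were 15.8, 17.9 and 2.52 for CD82, 72.2, 41.9 and 60.3 for CD37, 16.8, 17.7 and 7.14 for CD53, 83.8, 182 and 126 for CD63, 31.8, 48.2 and 53.9 for CD81 and 23.2, 24.6 and 32.9 for CD151. CD9 had 0.0233 with shRNA 1 and 0.0340 in control cells, and CD37 in control cells was 43.1 with raw totals. Spearman values of likeness to CD82 were 0.853 for ZYX, 0.874 for HSD17B1P1, 0.867 for PRAM1, 0.776 for LPXN and 0.811 for FLNA. The causes were not tested, apart from the length itself.

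Over all tested genes, deviations of same-numbered libraries had correlations of -0.0369 to 0.0893, none above 0.1, with 3 of 12 best matched by number, so the libraries were not treated as paired. Matching by number cannot show a batch shared by replicates 1 and 2 or by 3 and 4. Between shRNA 2 and either other group, every best match stayed within replicates 1 and 2 or within 3 and 4. Between control and shRNA 1, replicates 2 and 3 of the control kept to this split. Replicate 1 of the control best matched replicate 4 of shRNA 1, and replicate 4 of the control best matched replicate 1. A batch of this kind was not tested. CD63 and CD81 did deviate alike by number in all 3 groups, and with the replicate block their adjusted p with shRNA 1 was 5.71e-06 and 1.91e-08. With the replicate block, all-gene counts higher and lower were 4508 and 4615 with shRNA 1, 3977 and 4028 with shRNA 2, and 4718 and 4619 between the shRNAs. TSPAN3 (adjusted p = 0.0536) and UPK1A (0.0577) with shRNA 2 lost their calls under the block, and no member did. The alternatives planned for 3'READS were not run. CD9 is limited by depth, at no more than 3 counts per library.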
